A study of Mus musculus with 48 samples.

Results

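The response described here is that of XXF mouse lungs to hyperoxia at postnatal day 5 (P5), read as mRNA levels across all genes of the whole lung. Its samples were the 6 P5 XXF animals among the 48 of the series, 3 that breathed 95% oxygen (animals 17, 18 and 19) and 3 kept in room air (animals 1, 2 and 3). They belong to the FCG model on C57BL/6J, in which the testis-determining gene Sry is moved off the Y chromosome so that gonads and sex chromosomes are inherited separately. XXF mice carry XX chromosomes and ovaries, the female pattern of both, and were set beside XXM (XX, testes), XYF (XY, ovaries) and XYM (XY, testes) mice of the same age, and beside XXF mice at P21 after recovery in room air. The labels and the paper date the lungs to P5, which the paper describes as directly after the exposure. The design text of the series gives exposure on days 1 to 5 and collection on day 7, and the paper ends exposure a day earlier. The exact day of collection is therefore uncertain by the sources. The samples are whole lung, so fewer cells of a type and less RNA per cell cannot be told apart in any value below.

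The 6 libraries held between 6008291 and 19934269 reads counted on genes, and the shallowest and the deepest were both from exposed animals. Xist, the RNA that coats the inactive X chromosome, was at 1165 to 1284 CPM (counts scaled to a library of 1000000 reads) in all 6 animals, and none of the Y-linked genes Ddx3y, Uty, Kdm5d and Eif2s3y exceeded 0.424 CPM. Each of these Y-linked genes was at 16.8 CPM or more in every one of the 12 P5 XY animals, so the labelled XX chromosomes matched the RNA. Surfactant and alveolar type I genes were abundant in every library, as the label lung requires. Correlations of log2 CPM were 0.989 to 0.994 for pairs of animals within a group and 0.982 to 0.991 for pairs between groups, given as a description over libraries of unequal depth. Room air animals 1 and 3 lay at opposite ends of the second principal component, and both carried skeletal muscle RNA that animal 2 and the exposed animals had far less of. Among the animals that shared the estimate of spread, exposed XXM animals 22 and 23 stood apart from their group. Without them the common coefficient of biological variation of the P5 fit fell from 0.149 to 0.0997.

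In the first days after birth mouse lungs are in the saccular stage of development, when airspaces have not yet been divided into alveoli. High oxygen at this age is a standard model of bronchopulmonary dysplasia. Oxygen in excess raises reactive oxygen species, which damage DNA and lipids, induce the p53 and NRF2 pathways and draw monocytes and neutrophils into the lung. Division of airspaces depends on endothelial growth, on PDGF-responsive myofibroblasts that lay down elastin, and on proliferation, so genes of these processes were read beside those of injury and inflammation.

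In XXF lungs at P5, hyperoxia raised 141 genes and lowered 133 of 17677 genes tested. The rises were 0.798% and the falls 0.752% of all genes tested, 1.55% together. These shares are the background for the counts of called genes in each list below. A gene was called when edgeR's quasi-likelihood test gave a Benjamini-Hochberg adjusted p under 0.05 with a change of at least 1.5-fold. The median called gene rose 1.68-fold or fell 1.69-fold, and 36 rises and 19 falls exceeded 2-fold. In 140 of the risen and 130 of the fallen genes the 3 exposed animals lay wholly outside the range of the 3 room air animals. Over all genes tested this share was 14.9% in each direction. The called genes were chosen on these same animals, so their separation is largely built in and adds no support. The median log2 difference between hyperoxia and room air over all genes tested was -0.005. Without exposed XXM animals 22 and 23 the same fit called 277 genes up (1.47%) and 362 down (1.93%), and the 6 XXF animals fitted alone gave 267 (1.77%) and 323 (2.14%). These 2 fits kept 266 of the 274 calls each, whereas leaving out room air animal 3 kept 121 and leaving out exposed animal 17 kept 135.

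The largest rises included secreted and surface proteins of inflammation. Wfdc17, a small secreted protein of activated macrophages, was at 1.51, 1.45 and 1.27 CPM in room air animals 1, 2 and 3 and at 13.5, 7.4 and 7.17 CPM in exposed animals 17, 18 and 19. Exposed animal 17 was the highest and the groups did not overlap (log2 difference 2.69 ± 0.47, SE, adjusted p = 0.00171). Inhba, the subunit that forms activin A, a ligand of the TGF-beta superfamily, was at 2.63, 2.59 and 2.26 CPM in room air and 14.3, 10.2 and 14.1 CPM under hyperoxia. All 3 exposed lungs were at more than 3 times the highest control (2.34 ± 0.34, adjusted p = 0.000326). Ccl6, a chemokine for macrophages and other leukocytes, was at 79.6, 80.4 and 67.9 CPM in controls and 274, 256 and 212 CPM in exposed lungs. Of all 274 called genes it had the smallest adjusted p, with both groups narrow and far apart (1.70 ± 0.12, adjusted p = 1.17e-08). Ccl9, a related chemokine, was at 9.9, 11.3 and 10.04 CPM and rose to 37.1, 24.6 and 28.6 CPM (1.51 ± 0.22, adjusted p = 0.000326). The genes of Ccl9, Ccl6 and Wfdc17 lie close together on GRCm38, at chr11:83572919-83578636, chr11:83587882-83593087 and chr11:83703991-83706268.

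Marco, a scavenger receptor of alveolar macrophages, was at 7.58, 8.46 and 12.4 CPM in room air and 37, 25.4 and 31.4 CPM under hyperoxia. Its log2 difference was 1.73 ± 0.30 (adjusted p = 0.00154). Cxcl17, a mucosal chemokine, was at 12.3, 11.4 and 4.24 CPM in room air and 30.4, 27 and 22.6 CPM in hyperoxia, with animal 3 the lowest control (1.48 ± 0.27, adjusted p = 0.00264). Cdkn1a, the cyclin-dependent kinase inhibitor p21, was at 54.9, 57.8 and 47.4 CPM in controls and 150.5, 130.5 and 163 CPM in exposed lungs. Its lowest exposed animal was more than 2 times the highest control (1.46 ± 0.16, adjusted p = 2.06e-05). The other large rises were Flt3 (the receptor for the dendritic cell growth factor FLT3 ligand), Stfa3 (a stefin A protease inhibitor), Fam57b, Adm (the vasodilator adrenomedullin) and the mitochondrial tRNA gene mt-Tl1. Flt3 was at 0.707, 0.61 and 0.707 CPM in room air and 3.61, 2.4 and 2.11 CPM under hyperoxia (1.99 ± 0.50, adjusted p = 0.0244). Of the 6 fits that each left out 1 animal, Flt3 was called in 1, Adm in 2 and Fam57b and mt-Tl1 in none, whereas Wfdc17, Inhba, Stfa3, Ccl6, Ccl9, Marco, Cxcl17 and Cdkn1a were called in all 6.

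Among called genes without overlap of animals, the steepest fall was in Cyp1a1, a cytochrome P450 that is the classic target of the aryl hydrocarbon receptor. It was at 13.7, 17.8 and 3.96 CPM in room air animals 1, 2 and 3 and 0.164, 0.75 and 0.281 CPM in exposed animals. The lowest control was more than 5 times the highest exposed lung, although the controls themselves spread widely (-4.59 ± 0.90, adjusted p = 0.00415). Of 5 aryl hydrocarbon receptor targets tested, a list added after the values were seen, Cyp1a1 alone was called and the median difference was 0.01. Cyp26b1, which degrades retinoic acid, was at 31.6, 30.1 and 19.5 CPM and fell to 8.05, 9.25 and 8.16 CPM with no overlap (-1.67 ± 0.24, adjusted p = 0.000326). Enpp1, which makes pyrophosphate from ATP, was at 19.8, 18.4 and 32.1 CPM in room air and 6.24, 9.25 and 8.72 CPM in hyperoxia (-1.48 ± 0.25, adjusted p = 0.0013). Room air animal 3 was the highest for Enpp1, and the exposed animals were below all 3 controls. Dlk1, a Notch-like membrane protein of immature mesenchyme, was at 59.9, 56.9 and 65 CPM in controls and 27.1, 25.2 and 19.3 CPM in exposed lungs (-1.34 ± 0.24, adjusted p = 0.00187). Glp1r, the receptor for glucagon-like peptide 1, fell from 16.3, 17.9 and 21.4 CPM to 7.56, 7.75 and 7.74 CPM (-1.26 ± 0.19, adjusted p = 0.000403). These 5 genes were called in each of the 6 fits that left out 1 animal.

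Other large falls were less certain. Krt1, a keratin of stratified epithelium such as skin, was at 0.808, 0.458 and 3.25 CPM in room air and 0, 0.2 and 0.141 CPM under hyperoxia, and was called in 2 of the 6 fits that left out 1 animal. Krt5, a basal keratin, was uncalled at 4.14, 0.0763 and 12.2 CPM and 0, 0.15 and 0.281 CPM, high in the same control animals 1 and 3, and the part of such tissue in the Krt1 difference was not tested. The pseudogenes Gm13456, Gm9616 and Gm6682 were all highest in room air animal 3, and their reads may be shared with near-identical parent genes. Ifi213, an interferon-inducible gene, fell by 1.52 on the log2 scale, Cntn1, a cell adhesion molecule of neurons, fell by 1.51, and Pif1, a DNA helicase, fell by 1.25. Without single animals, Cntn1 was called in 5, Ifi213 in 4, Gm13456 in 3, Gm9616 and Gm6682 in 2 and Pif1 in 1 of the 6 fits.

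**Figure D1:**
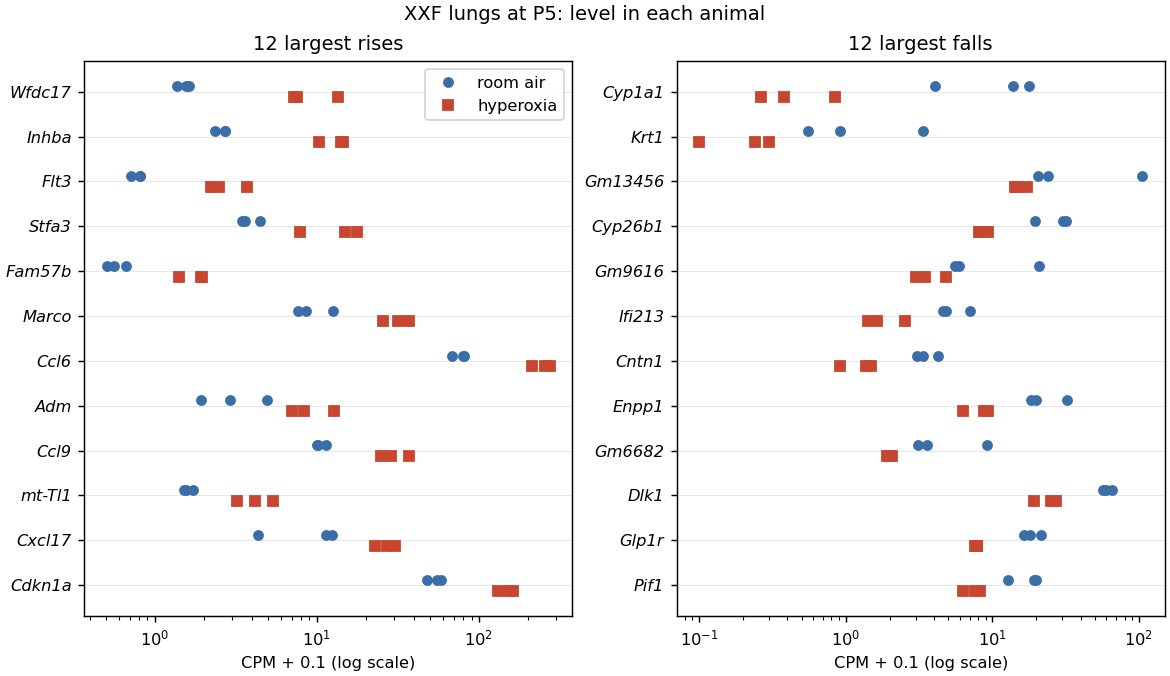
Levels of the 12 called genes with the largest rises (left) and the 12 with the largest falls (right) in XXF lungs at P5 whose groups did not overlap, as CPM + 0.1 on a log axis, with each point 1 animal (circles room air, squares hyperoxia, 3 each). Wfdc17 lay between 1.27 and 1.51 CPM in room air and between 7.17 and 13.5 CPM in hyperoxia, and Cyp1a1 controls spread from 3.96 to 17.8 CPM.

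Genes of mitosis were lower under hyperoxia. In a list of 37 G2/M genes, 10 were called down and 0 up, 27% against 0.752% of all genes, and all 37 had a negative difference. The median log2 difference was -0.58 against -0.005 over all genes, and in 33 of the 37 the exposed animals lay below every control, against 14.9% of all genes. Their summed level was 2680, 2933 and 3112 CPM in room air animals 1, 2 and 3 and 1702, 2046 and 2107 CPM in exposed animals 17, 18 and 19, so the highest exposed lung was below the lowest control. Of 30 S phase genes 0 passed the test in either direction, although 27 had a negative difference. Their median was -0.14. In 9 of the 30 the exposed animals lay below all controls and in 0 above, against 14.9% of all genes in each direction. The most abundant S phase genes were Pcna, the replication clamp, with a log2 difference of -0.03 ± 0.10, Mcm6 of the replicative helicase with -0.12 ± 0.13 and Rrm1, which makes deoxynucleotides, with -0.24 ± 0.13. The difference between the S phase and G2/M lists was not tested.

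Among the mitotic genes, Cdc20, the activator of the anaphase-promoting complex, was at 53.4, 59 and 75.4 CPM in room air and 32.7, 36.7 and 33.5 CPM in hyperoxia (-0.86 ± 0.21, adjusted p = 0.0198). Ccnb2, cyclin B2, was at 57.1, 66.5 and 71.8 CPM and 33.2, 41.1 and 33.3 CPM (-0.85 ± 0.20, adjusted p = 0.0166). Cenpa, the histone that marks centromeres, was at 65, 75.4 and 82.4 CPM and 35, 44.2 and 41.8 CPM (-0.87 ± 0.19, adjusted p = 0.00809). Cenpf, a kinetochore protein, was at 72.3, 82.2 and 101 CPM in controls and 42.7, 52.4 and 49.9 CPM in exposed lungs (-0.81 ± 0.17, adjusted p = 0.00873). In all 4 genes room air animal 3 was the highest, and the groups did not overlap. Cenpa and Cenpf were called in 4 and Cdc20 and Ccnb2 in 2 of the 6 fits without single animals. The other called members were Ccnb1 (-0.68 ± 0.17), Plk1 (-0.79 ± 0.22), Aurka (-0.76 ± 0.14), Cenpe (-0.60 ± 0.16), Kif20a (-0.73 ± 0.19) and Prc1 (-0.73 ± 0.18). Outside the list, Ccnf (cyclin F, -1.05 ± 0.17), Troap (-1.24 ± 0.24), the minus-end kinesin Kifc1 (-0.99 ± 0.20), the spindle pole protein Aspm (-0.99 ± 0.20) and the ubiquitin-conjugating enzyme Ube2c (-0.81 ± 0.15) also fell. Kifc1 has a near-identical copy, Kifc5b, so the split of reads between the 2 is uncertain. The count of called G2/M genes was fragile to single animals. It was 1 without room air animal 3 or without exposed animal 17, and 4 to 9 without any other, against 10 with all 6 and 18 both in the 6 animals alone and without animals 22 and 23.

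**Figure D2:**
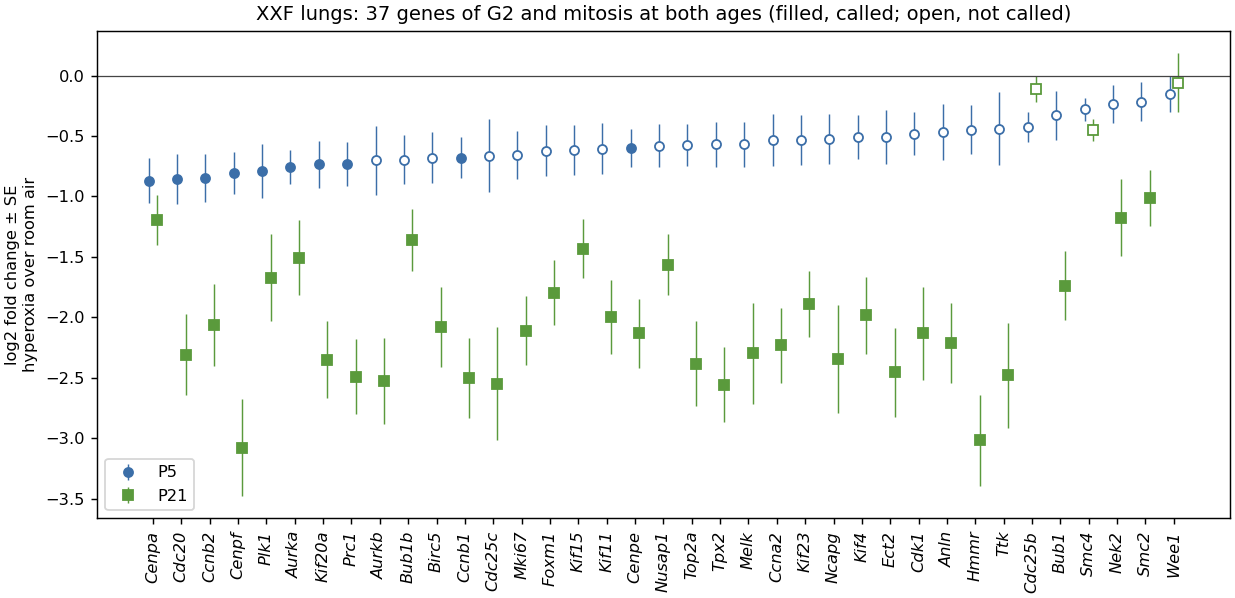
Log2 differences between hyperoxia and room air (bars SE) in XXF lungs for the 37 G2/M genes, at P5 (circles) and P21 (squares), with 3 animals per treatment at each age and filled symbols for called genes. All 37 genes lie below 0 at both ages, with 10 filled at P5 and 34 at P21.

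Promoters of mitotic genes carry CCAAT boxes, which the factor NF-Y binds, at short distances upstream of the start site. Starts of 5 of the fallen G2/M genes are shown because 10 members of the list fell, as the 150 bases upstream of the RefSeq start on GRCm38.p6, read 5′ to 3′ on the strand of the gene. Capitals mark CCAAT in either orientation (CCAAT or ATTGG) with the box taken as its 5 bases. The windows are chr13:100786487-100786636 (minus strand) for Ccnb1, chr9:70421555-70421704 (minus) for Ccnb2, chr4:118437344-118437493 (minus) for Cdc20, chr1:189688087-189688236 (minus) for Cenpf and chr5:30666736-30666885 (plus) for Cenpa.
Ccnb1: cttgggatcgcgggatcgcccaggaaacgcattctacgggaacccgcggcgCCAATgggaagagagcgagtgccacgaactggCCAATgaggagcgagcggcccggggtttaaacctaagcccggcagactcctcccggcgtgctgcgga
Ccnb2: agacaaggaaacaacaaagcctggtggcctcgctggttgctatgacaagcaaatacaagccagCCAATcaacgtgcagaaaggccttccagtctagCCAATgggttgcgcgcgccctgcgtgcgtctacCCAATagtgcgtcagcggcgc
Cdc20: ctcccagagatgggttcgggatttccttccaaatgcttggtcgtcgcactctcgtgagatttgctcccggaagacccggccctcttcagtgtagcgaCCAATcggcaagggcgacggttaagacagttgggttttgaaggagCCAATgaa
Cenpf: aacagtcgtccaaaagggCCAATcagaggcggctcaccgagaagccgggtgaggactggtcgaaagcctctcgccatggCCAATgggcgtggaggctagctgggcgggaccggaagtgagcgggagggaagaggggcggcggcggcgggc
Cenpa: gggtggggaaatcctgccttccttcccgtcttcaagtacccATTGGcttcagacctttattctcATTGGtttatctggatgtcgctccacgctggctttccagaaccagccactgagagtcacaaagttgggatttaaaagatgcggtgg
The boxes began 99 and 67 bases upstream of the RefSeq start in Ccnb1, 87, 54 and 21 in Ccnb2, 53 and 8 in Cdc20, 132 and 71 in Cenpf, and 109 and 86 in Cenpa, where they lie in the opposite orientation. GENCODE places the starts of Cenpa (30666777), Ccnb1 (100786570) and Cdc20 (118437352) inside these windows. By GENCODE some of the boxes therefore lie within those genes. In windows of 250 upstream bases, CCAAT on either strand was present in all 10 windows of the 9 called G2/M genes that RefSeq matched, and in 26 of 31 windows of the whole G2/M list (83.87%). The share was 33.85% over all 32851 RefSeq windows, 61.29% in the S phase list, 42.59% for all genes called down and 29.84% for all genes called up. The motif TTTGAA, searched on both strands, was in 3 of the 10 windows against 15.99% of all. A match describes these letters only and is not a site shown to be bound.

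Of 31 p53 targets tested, 3 were called up and 0 down, with a median log2 difference of 0.22 and 24 of the 31 positive. Beside Cdkn1a these were Ccng1, cyclin G1, at 61.6, 52.1 and 49.2 CPM in room air and 93.2, 86 and 81 CPM in hyperoxia (0.67 ± 0.17), and Zmat3, an RNA-binding p53 target, at 26.2, 23.3 and 26 CPM and 40.9, 37.2 and 40.6 CPM (0.65 ± 0.17). Their groups did not overlap, but Ccng1 was called in 2 and Zmat3 in none of the 6 fits that left out 1 animal. By role, 2 of 10 arrest genes, 1 of 12 apoptosis genes and 0 of 4 DNA repair genes were called.

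The NRF2 targets, which hold glutathione, thioredoxin and quinone-reducing enzymes, had a median of 0.26 with 1 of 33 called. This was Ephx1, the microsomal epoxide hydrolase, at 43.1, 43.6 and 43.1 CPM in room air and 81.7, 75.8 and 74.1 CPM under hyperoxia, with a narrow spread and no overlap (0.83 ± 0.10, adjusted p = 4.97e-05). In 18 of the 33 targets all exposed animals were above all controls and in 4 they were below, against 14.9% of all genes for each. Of 15 other enzymes and proteins that remove superoxide and peroxides, Mt1, a metallothionein that binds zinc and copper, was the 1 called, at 38.1, 36.8 and 30.1 CPM in room air and 66.5, 52.2 and 52.2 CPM in hyperoxia (0.69 ± 0.17, called in 3 of the 6 fits without single animals), and the median was 0.17. The integrated stress response, which slows translation when amino acids or folding capacity run short, had 0 of 19 genes called and a median of 0.06. Its factor Atf4 differed by 0.03 ± 0.08, Vldlr by -0.12 ± 0.08 and Slc3a2, a subunit of amino acid transporters, by 0.01 ± 0.10.

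Chemokine genes had a median log2 difference of 0.55, with 5 of 40 called up and 0 down. Among ligands these were Ccl6, Ccl9, Cxcl17 and Cx3cl1, the membrane-bound fractalkine of endothelium and epithelium, and the fifth was the receptor Ccr1. Cx3cl1 was at 19, 19.1 and 17 CPM in room air and 41.2, 32.4 and 31.5 CPM in hyperoxia (0.92 ± 0.13, adjusted p = 0.000226). All exposed lungs were above the controls for Cx3cl1. Ccr1, through which several CC chemokines signal to myeloid cells, was at 9.9, 10.9 and 7.35 CPM and 20.9, 16.9 and 10.8 CPM (0.77 ± 0.21), and exposed animal 19 lay just below control animal 2. By role, 2 of 14 CC ligands, 1 of 10 CXC ligands and 1 of 15 receptors were called.

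Of 41 cytokine and acute phase genes, 4 were called up and 0 down, with a median of 0.32. Of these, 3 are secreted acute phase or antimicrobial proteins, among 13 of that kind. Hp, haptoglobin, which binds free haemoglobin, was at 370.0, 332 and 258 CPM in room air animals 1, 2 and 3 and 760.4, 637 and 633 CPM in exposed animals (1.08 ± 0.15, adjusted p = 0.000326). Cp, the copper-carrying ferroxidase ceruloplasmin, was at 132, 109 and 168 CPM and 238, 243 and 242 CPM (0.83 ± 0.14, adjusted p = 0.000981). Osmr, the oncostatin M receptor, was at 28.4, 29.4 and 29.8 CPM and 55, 44.4 and 57 CPM (0.83 ± 0.15, adjusted p = 0.00188). The groups did not overlap for Hp, Cp or Osmr. None of the 16 tested ligands of the IL-1, IL-6, TNF and colony-stimulating families was called. Interferon-stimulated genes had 0 of 23 called and a median of -0.21, and their most abundant members differed by -0.04 ± 0.13 (Ddx58, the RNA sensor RIG-I), -0.18 ± 0.14 (Irf9) and -0.20 ± 0.12 (Bst2, tetherin). In 7 of the 23 the exposed animals lay below all controls and in 2 above, against 14.9% of all genes for each. The lowest log2 difference among them was -1.72.

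Several markers of myeloid cells rose as well. Of 15 alveolar macrophage markers 5 were called up and 0 down, with a median of 0.35. After Marco the largest was Atp6v0d2, a subunit of the vacuolar proton pump, at 17.4, 15.6 and 11.3 CPM in room air and 31.5, 31.2 and 29 CPM in hyperoxia (1.04 ± 0.17). Itgax, the integrin CD11c, was at 16.5, 18.5 and 18.5 CPM and 27.4, 30.3 and 31.1 CPM (0.73 ± 0.12), and Cd68, a lysosomal glycoprotein, was at 23.6, 20.4 and 18.7 CPM and 36.3, 34.9 and 32.1 CPM (0.72 ± 0.11). The members did not all move one way. Siglecf, a lectin that defines the mature cell, was uncalled at 5.96, 4.19 and 4.24 CPM in room air and 1.81, 3.9 and 3.38 CPM in hyperoxia, and Chil3, a chitinase-like protein of the same cell, was uncalled at 44.6, 31.4 and 9.05 CPM and 22.2, 15.6 and 9 CPM. Both were chosen after their values were seen. In 7 of the 15 markers the exposed animals were all above and in 4 all below the controls, against 14.9% of all genes for each. The lowest log2 difference in the list was -3.17, in an uncalled member. The summed level was 339.9, 310.4 and 276 CPM in controls and 422, 424 and 395 CPM in exposed lungs.

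Of 16 monocyte and interstitial macrophage markers 5 were called up, with a median of 0.47. Gpnmb, a glycoprotein of lipid-laden macrophages, was at 7.68, 5.57 and 8.34 CPM in room air and 20.04, 15.8 and 13.4 CPM in hyperoxia (1.20 ± 0.24, adjusted p = 0.00482). Ly6c2, the surface marker of inflammatory monocytes, was at 6.87, 5.95 and 5.94 CPM and 13.8, 12.7 and 12.9 CPM (1.07 ± 0.18). It is nearly identical to Ly6c1, an endothelial gene that also rose (0.70 ± 0.15), so the split between them is uncertain. Trem2, a lipid-sensing receptor of macrophages, differed by 0.98 ± 0.26 and Ms4a7 by 0.97 ± 0.24, called in 2 and 1 of the 6 fits without single animals. The summed level of these 16 markers was 506, 447 and 435 CPM in controls and 684, 546 and 605 CPM in exposed lungs, without overlap.

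Neutrophil markers had the larger median, 0.85, with 3 of 12 called up. S100a8 and S100a9, which form calprotectin, were at 43.1, 48 and 32.2 CPM and 62.4, 63.2 and 47.2 CPM in room air and at 126, 91.1 and 61.8 CPM and 148, 109 and 82.3 CPM in hyperoxia. The controls lay below the exposed animals for both (1.16 ± 0.27 and 0.96 ± 0.23). The third was Stfa2l1, one of the stefin A genes. Without single animals S100a8 was called in 4, S100a9 in 3 and Stfa2l1 in 2 of the 6 fits. Of 6 stefin A genes and near copies tested, a list added after the values were seen, 5 were called up with a median of 1.22, but these copies are so alike that reads cannot be assigned among them with certainty. Counts called without any 1 animal were 0 to 3 for neutrophil markers, 2 to 5 for monocyte markers and 4 to 5 for alveolar macrophage markers. Among 13 dendritic cell markers Flt3 was the 1 called, and the median was 0.41. None of 12 T and NK cell markers (median 0.34), 9 B cell markers (0.38) or 7 platelet markers (0.67) was called.

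Signals for alveolar growth changed at single genes. Of 61 genes of TGF-beta, activin and BMP signalling, Inhba rose and Bmp6, a BMP ligand, and Tgfbi, a TGF-beta-induced matrix protein, fell (-0.65 ± 0.16 and -0.63 ± 0.11), and the median was 0.01. Without single animals Inhba was called in 6, Tgfbi in 5 and Bmp6 in 2 of the 6 fits. None of 13 receptors of this family was called. Of 73 genes of hedgehog, PDGF, FGF, WNT, retinoid and IGF signalling, 2 were called up and 2 down (median -0.05). Pdgfra, the PDGF receptor that defines the precursors of alveolar myofibroblasts, was at 121, 119 and 180.2 CPM in room air animals 1, 2 and 3 and 61.9, 71.8 and 72 CPM in exposed animals. Every exposed lung was below every control, with control animal 3 the highest (-1.02 ± 0.16, adjusted p = 0.000712). Igf1, insulin-like growth factor 1, was at 112, 88.5 and 101 CPM and 174, 146 and 175 CPM (0.71 ± 0.13, adjusted p = 0.00328). In retinoid metabolism Aldh1a1, which makes retinoic acid, rose from 306, 273 and 189 CPM to 413, 427 and 369 CPM (0.65 ± 0.15, called in 3 of the 6 fits without single animals), while Cyp26b1, which breaks it down, fell. None of 15 FGF, 23 WNT or 8 hedgehog genes was called.

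Few mesenchymal markers passed the test, and those that did fell. Of 13 alveolar myofibroblast markers 2 were called down, Pdgfra and Tgfbi, and 0 up, with a median of -0.36 and a summed level of 2339, 2372 and 2901 CPM in controls and 1823, 1909 and 2020 CPM in exposed lungs. Of 15 matrix and lipid fibroblast markers, Tcf21, a transcription factor of lung mesenchyme, and Col14a1, a fibril-associated collagen, fell (-0.68 ± 0.09 and -0.62 ± 0.11), with a median of -0.19. Of 9 smooth muscle markers Synpo2, an actin-bundling protein, fell (-0.59 ± 0.14), and the median was -0.57. Tcf21 was called in 6, Col14a1 in 4 and Synpo2 in 3 of the 6 fits without single animals. None of 10 pericyte or 7 mesothelial markers was called.

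The matrix list of 65 genes had 5 called up and 6 down, with a median of -0.08. All 3 called members among 13 elastic fibre genes fell. Mfap2, a microfibril protein, was at 234, 224 and 248 CPM in room air and 135, 128 and 128 CPM in hyperoxia (-0.85 ± 0.14, adjusted p = 0.000842). Fbln1, an elastin-binding fibulin, was at 143, 139.5 and 124 CPM and 84.8, 74.5 and 73.7 CPM (-0.81 ± 0.13), and Fbln2 differed by -0.72 ± 0.19. The groups did not overlap for any of the 3, and the median of the 13 was -0.36. Of 17 collagens, Col6a2, of the microfilament-forming type VI, Col1a1, the chief fibrillar chain, and Col14a1 fell. The basement membrane chains Col4a3 and Col4a4 rose. Col6a2 was at 861, 969 and 767 CPM and 463, 482 and 535 CPM (-0.81 ± 0.08), and Col4a3 was at 259.8, 278 and 257 CPM and 373, 418 and 467 CPM (0.66 ± 0.17). Col4a3 and Col4a4 are adjacent genes of the alveolar basement membrane. Lama3 and Lamb3, laminin chains of basement membranes under epithelium, also rose (0.59 ± 0.15 and 0.60 ± 0.12), and Lamb3 was chosen after its value was seen. Timp3, an inhibitor of metalloproteases, was at 217, 237 and 215 CPM in room air and 326, 320.0 and 486 CPM in hyperoxia (0.76 ± 0.17). None of 8 cross-linking enzymes was called. Without single animals Col4a4 was called in 5, Timp3 in 4, Fbln2 in 2 and Col4a3 in 1 of the 6 fits. Without single animals the risen matrix genes numbered 0 to 4 (0 without room air animal 3) and the fallen 4 to 8.

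Among epithelial markers few genes were called. None of 12 type II markers was called (median 0.03), with Sftpc at 14030, 13350 and 13960 CPM in controls and 15100, 14840 and 14040 CPM in exposed lungs, where the lowest exposed value was just above the highest control. Of 12 type I markers 1 was called up, Clic5, a chloride channel family protein, at 376, 379 and 365 CPM in room air and 549.7, 597 and 534 CPM in hyperoxia (0.59 ± 0.12). In 9 of the 12 the exposed animals were above all controls, against 14.9% of all genes. The median was 0.37, and the summed level was 6011, 6046 and 5517 CPM in room air and 7009, 7150 and 6870 CPM in hyperoxia. Of 11 transitional epithelium markers Lgals3, galectin 3, which macrophages express as well, rose (0.66 ± 0.15). Clic5 was called in 4 and Lgals3 in 3 of the 6 fits without single animals. None of 12 airway markers was called.

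Endothelial genes changed in both directions. All 3 called members of 8 general capillary markers fell, and the same 3 were counted in each of the 6 fits that left out 1 animal. Kit, the stem cell factor receptor, was at 133, 134 and 164 CPM in room air and 69.2, 87.9 and 68.2 CPM in hyperoxia (-0.92 ± 0.18, adjusted p = 0.00431). Kit is also a marker of mast cells, and was the 1 called of 8 mast cell and basophil markers tested. The median of those markers was 0.55. Exposed animals lay above all controls in 6 of them and below in 2, against 14.9% of all genes for each. Gpihbp1, which holds lipoprotein lipase on capillaries, was at 88.6, 100.2 and 104 CPM and 50.8, 52.3 and 59.1 CPM (-0.86 ± 0.15, adjusted p = 0.00162). Plvap, of the diaphragms of fenestrae and caveolae, was at 239, 252 and 258 CPM and 147, 165 and 154 CPM (-0.68 ± 0.09, adjusted p = 0.000174). Each of the 3 was lower in every exposed lung, and the median of the 8 was -0.50. Of 9 markers of the Car4 capillary, the large cell that spans the gas exchange surface, Apln, the ligand apelin, rose from 101, 112 and 116 CPM to 160.5, 166 and 226 CPM (0.75 ± 0.16, adjusted p = 0.00721), and the median was 0.06. Of 12 markers of arteries, veins and lymphatics, Vwf, von Willebrand factor, fell from 218, 229 and 226 CPM to 127, 128 and 167 CPM (-0.68 ± 0.11, adjusted p = 0.000884). Of 36 vascular growth factor genes, Apln was called up and Vwf and Angptl4, an inhibitor of lipoprotein lipase, down, and none of 10 VEGF ligands and receptors was called. Apln was called in 5 and Angptl4 in 3 of the 6 fits without single animals. Prokr2, a receptor for prokineticins, was uncalled at 0.404, 0.381 and 2.12 CPM in room air and 0.164, 0.55 and 0.281 CPM in hyperoxia.

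**Figure D3:**
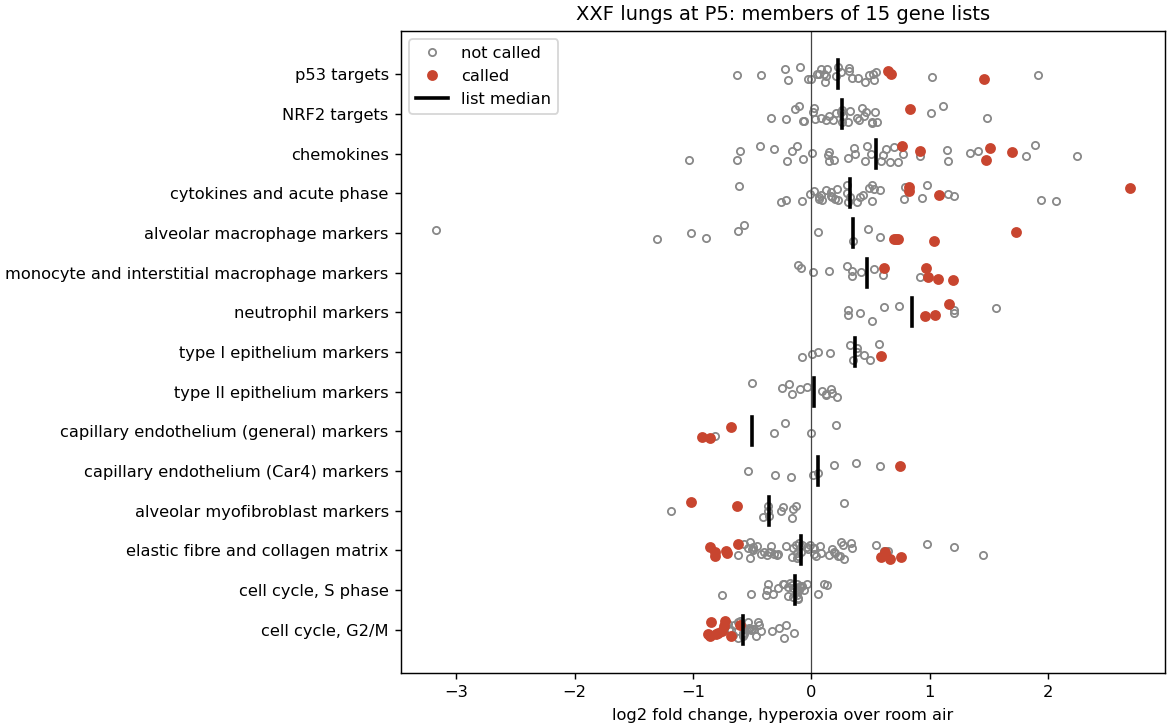
Log2 differences between hyperoxia and room air in XXF lungs at P5 for the tested members of 15 gene lists, each point 1 gene (filled where called, open where not) and each bar the median of the list. The G2/M list has a median of -0.58 with 10 filled points below 0, and the neutrophil list a median of 0.85 with 3 filled points above 0.

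Several tissues other than alveolar lung differed between the libraries. Skeletal muscle markers summed to 511, 22.3 and 370.5 CPM in room air animals 1, 2 and 3 and to 10.02, 12.8 and 18.9 CPM in exposed animals, so controls 1 and 3 were high and control 2 was near the exposed range. None of the 13 was called. Heart muscle markers summed to 831, 517 and 454 CPM and 234, 286 and 332 CPM, without overlap and with 0 of 12 called. Erythroid markers, mainly haemoglobin, summed to 6629, 6673 and 7357 CPM in controls and 3730, 5728 and 4213 CPM in exposed animals, lower in all 3 exposed lungs, with 0 of 10 called. Their part in the falls described above was not tested. None of the liver, adipose, thymocyte or Schwann cell markers was called, and Ptcra, the thymocyte receptor chain, had 0 reads in all 6 libraries, where 3 reads would be 0.150 to 0.492 CPM.

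Another 3 processes had 0 genes called, with their medians in parentheses, cholesterol synthesis (-0.13, 21 genes), glucocorticoid-induced genes (0.13, 12 genes) and the circadian clock (0.31, 16 genes). Genes of the mitochondrial genome, a list added after the values were seen, had 5 of 25 called up and a median of 0.51. Their share of all counts was 1.48 to 1.65% in room air and 2.11 to 2.19% in hyperoxia. Copies of mitochondrial sequence in the nuclear genome make such counts uncertain, and their relation to RNA quality was not tested. Of 566 X-linked genes tested, also added afterwards, 3 were called up (Apln, Slc6a14 and Tmem47) and 3 down (Maged2, Tro and 2010204K13Rik). This was 0.53% in each direction, against 0.798% up and 0.752% down over all genes tested. Xist itself differed by 0.01 ± 0.14.

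The other genotypes at P5 moved most of these genes in the same direction. XXM mice had 801 genes up (4.53%) and 1139 down (6.44%), XYF mice 228 up (1.29%) and 312 down (1.77%), and XYM mice 372 up (2.1%) and 658 down (3.72%). Each genotype had control and exposed animals of its own, while the estimate of spread was shared. The XXM values include exposed XXM animals 22 and 23, which stood apart from their group. Their part in the XXM counts and shares was not tested, so the larger XXM counts are not read as a larger response. Of the 141 genes that rose in XXF lungs, 81 (57.45%) were called up in XXM, 99 (70.2%) in XYF and 87 (61.7%) in XYM lungs, which were 10.1%, 43.4% and 23.4% of the rises of those genotypes. Of the 133 that fell, 77 (57.9%), 87 (65.4%) and 101 (75.9%) were called down, 6.76%, 27.9% and 15.35% of theirs. Taking sign alone, 134, 140 and 134 of the 141 and 129, 131 and 131 of the 133 had the direction of XXF. The median of the XXF rises was 0.75 in XXF and 0.68, 0.74 and 0.72 in XXM, XYF and XYM, although the XXF value was the one that chose them. Krt1 was the 1 gene called in the opposite direction, up in XXM.

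In all 3 other genotypes 121 of the 274 genes were called in the XXF direction. Among the named genes these included the rises of Ccl6, Cdkn1a, Ephx1, Ccl9, Hp, Inhba, Cd68 and Ly6c2 and the falls of Col6a2, Glp1r, Fbln1, Pdgfra, Mfap2, Enpp1, Gpihbp1 and Dlk1. Another 45 genes, 25 up and 20 down, were called in none of the other 3, and 29 of the 45 still had the XXF sign in all 3. Adm was at 2.83, 1.83 and 4.81 CPM in XXF controls and 8.21, 6.95 and 12.7 CPM in exposed XXF lungs, a log2 difference of 1.59 ± 0.41, beside -0.27 in XXM, 0.45 in XYF and -0.04 in XYM, none of them called. Cyp1a1, at -4.59 ± 0.90 in XXF, was called down in XXM (-2.35) and uncalled in XYF (-2.22) and XYM (-0.28). Stfa3 differed by 1.86 ± 0.34 in XXF and -0.22, 0.94 and 0.25 in the others. Flt3 differed by 1.99 ± 0.50 in XXF and 1.48 in XXM, both called, and by -0.06 in XYF and -0.71 in XYM, neither called. The difference of the Flt3 responses between XXF and XYM had an adjusted p of 0.522 by edgeR's quasi-likelihood test.

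Direct tests of the difference between responses called 0 genes by edgeR's quasi-likelihood test, for XXF against the mean of the other 3, against XXM, against XYF and against XYM. At an unadjusted p under 0.05 they gave 1278, 2280, 376 and 1163 of 17677 genes, and DESeq2 called 7, 110, 9 and 6. Without exposed XXM animal 21, which leaves animals 22 and 23 as the exposed XXM group, edgeR called 320 genes against the mean and 2204 against XXM. The median SE of a difference of responses was 0.19 against the mean and 0.23 against 1 genotype. Ordered by unadjusted p, since adjusted p-values were tied, the leading genes against the mean were Upk1b, a uroplakin of mesothelium and urothelium, Sox11, a developmental transcription factor, and Plxna4, a semaphorin receptor, each at an adjusted p of 0.4145. Upk1b was at 43.5, 28.1 and 33 CPM in XXF controls and 52.1, 49.7 and 50.2 CPM in exposed XXF lungs, a difference of 0.54 beside -0.49, 0.02 and -0.61 in XXM, XYF and XYM. In the same order the leading genes against XXM were Adam33, a metalloprotease of mesenchyme, Zfyve1 and Fam163a (adjusted p = 0.101 each), against XYF Sox11, Vtn (vitronectin) and Krt1 (adjusted p = 1), and against XYM Plbd1, Wdfy4 and Upk1b (adjusted p = 0.22). Adam33 differed by -0.61 in XXF and -2.37 in XXM. Wdfy4, which dendritic cells need for cross-presentation, differed by 0.74 ± 0.13 in XXF, where it was called, and by -0.21 in XYM.

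Some of the lists are given side by side for the genotypes, picked by no rule set in advance and with no test between them. Exposed XXM animals 22 and 23, which stood apart from their group, are part of the XXM counts and medians. Falls among the 37 G2/M genes numbered 10 in XXF mice and 7, 11 and 29 in XXM, XYF and XYM mice, with medians of -0.58, -0.35, -0.55 and -0.87. Rises among the 33 NRF2 targets numbered 1 in XXF and 5, 5 and 8 in XXM, XYF and XYM, with medians of 0.26, 0.26, 0.41 and 0.38. Interferon-stimulated genes had a median of -0.21 in XXF and of 0.23, 0.27 and 0.43 in the others. Dendritic cell markers had medians of 0.41, -0.13, -0.16 and -0.71. Other lists had the same sign in every genotype. In XXF, XXM, XYF and XYM the medians were 0.37, 0.37, 0.39 and 0.42 for type I markers. They were -0.50, -0.50, -0.50 and -0.57 for general capillary markers and -0.36, -0.68, -0.51 and -0.52 for alveolar myofibroblast markers.

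**Figure D4:**
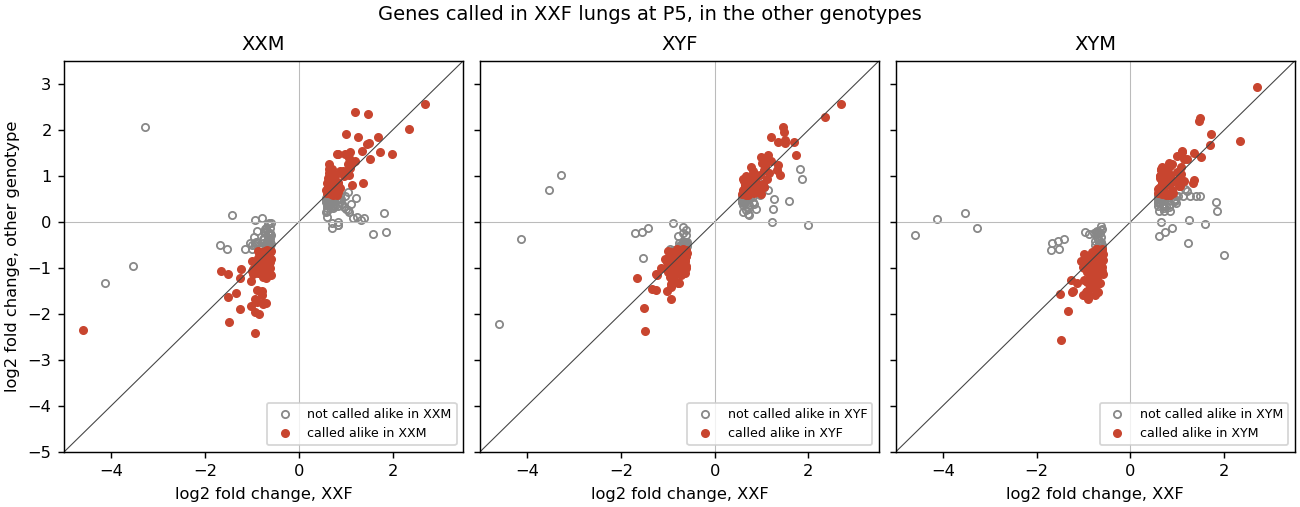
Log2 differences between hyperoxia and room air at P5 for the 274 genes called in XXF lungs, with the XXF value on the horizontal axis and the value in XXM, XYF or XYM mice on the vertical axis, each point 1 gene, filled where it was also called in that genotype in the XXF direction, and the diagonal marking equal values. The XXF axis chose the genes, and 263, 271 and 265 of the 274 points had the same sign in XXM, XYF and XYM.

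At P21, after recovery in room air, XXF lungs had 224 genes up (1.25%) and 364 down (2.03%) of 17937 tested, in 3 exposed animals (49, 51 and 52) and 3 controls (34, 35 and 36) that were not the P5 animals. The title of control 34 gives day 21, its age field day 5 and its column in the count table day 1, and the title was followed because animal number, genotype and treatment matched it alone. Of the 274 genes called at P5, 34 were called in the same direction at P21, 3 up and 31 down, and 16 in the opposite direction. The count of 34 became 9 to 35 when 1 animal was left out, with 9 without room air animal 3. The 31 repeated falls had a median of -2.14 at P21, and 10 of them were members of the G2/M list. At P21 34 of the G2/M genes were called down, with a median of -2.11 and a summed level of 979 to 1027 CPM in controls and 307.7 to 364.5 CPM in exposed lungs, and 14 S phase genes were called down as well (median -0.73). Thymocyte markers, of a tissue rich in dividing cells, summed to 53.2 to 118.3 CPM in P21 controls and 49.9 to 76.9 CPM in exposed animals, and their part was not tested. The repeated rises were Stfa2, Adhfe1, which oxidizes hydroxybutyrate, and Fam13a, a gene linked to lung function. Stfa2 is one of the near-identical stefin A genes.

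In all, 16 genes passed the test in opposite directions at the 2 ages, all without overlap of animals at both. A joint model of both ages, added after these calls were seen, called the P21 response above the P5 response in 245 genes and below it in 385 of 18732 (1.31% and 2.06%). The 16 were chosen for their opposite calls, so their difference between the ages is a description with no test. Of the 16, 11 rose at P5 and fell at P21. They included Gpnmb, at 12.2, 13.8 and 11.4 CPM in P21 controls and 5.03, 3.06 and 6.51 CPM in P21 exposed lungs, and Itgax, at 31.2, 28.3 and 33.5 CPM and 18.4, 14.3 and 17 CPM. The laminin genes Lama3 and Lamb3 also belonged to them, with Lama3 at 297, 256 and 306 CPM in P21 controls and 94.3, 120.0 and 158 CPM in exposed lungs. Every P21 exposed animal was below every control for these genes. The remaining 5 fell at P5 and rose at P21. Dlk1 was at 0.712, 0.454 and 0.105 CPM in P21 controls and 1.12, 5.02 and 2.22 CPM in exposed lungs, far below its P5 level in both groups. Tcf21 was at 98.8, 100.5 and 105 CPM and 172, 250.2 and 215 CPM, and Agt, angiotensinogen, was at 4.71, 4.04 and 3.88 CPM and 9.07, 60.2 and 13.2 CPM, with exposed animal 51 the highest. Liver markers summed to 5411 CPM in animal 51 and to at most 41.2 CPM in the other 5 P21 XXF animals, and adipose markers to 35.2 to 70.4 CPM in P21 controls and 136.5 to 871.9 CPM in exposed animals. The part of such tissue in the Agt and Dlk1 values at P21 was not tested.

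**Figure D5:**
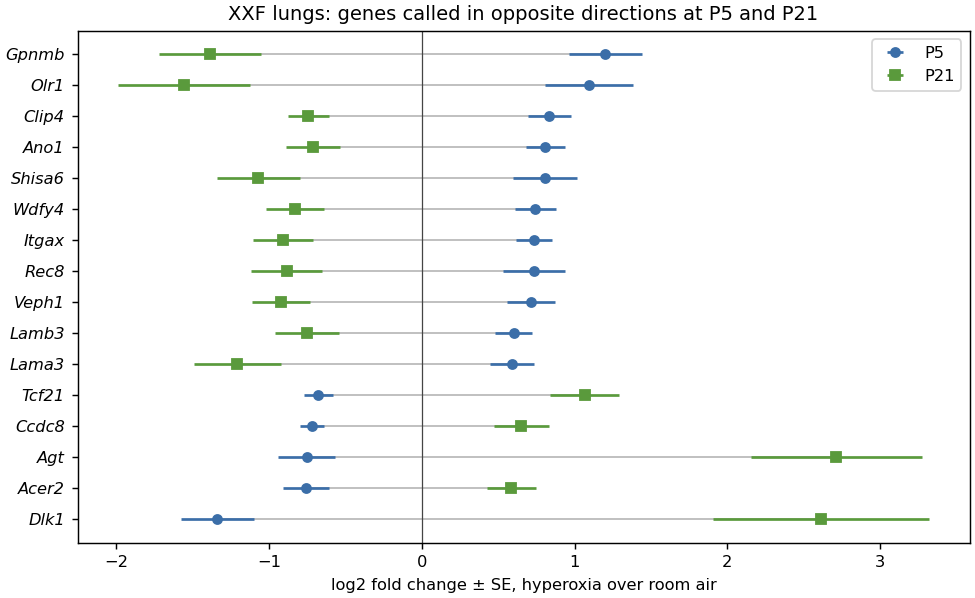
The 16 genes called in opposite directions at P5 and P21 in XXF lungs, as differences between hyperoxia and room air (log2, bars SE), 3 animals per treatment at each age. Dlk1 lies at -1.34 at P5 and 2.62 at P21, and Gpnmb at 1.20 and -1.38.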

How the data were processed

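The values are raw read counts per gene, whole numbers that the authors deposited without normalization for 52550 genes and 48 animals. Per the labels and the study's methods, poly(A) RNA of flash-frozen whole lung was made into stranded libraries and sequenced in pairs on an Illumina sequencer. The submitters' processing notes name HISAT2, featureCounts and mm10, with no role or version, and neither strand setting nor annotation release is named there or in the study's text. Counts do not separate molecules from PCR copies, and the labels do not say whether animals shared litters, so p-values measure the spread between these animals.

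Identifiers were matched to GENCODE on GRCm38 (52403 matched, 147 not). All 24 P5 animals were fitted with 8 group means (16 residual degrees of freedom) in edgeR 4.0.16 with R 4.3.3, after filterByExpr by group and TMM scaling, and hyperoxia was compared with room air in XXF mice by two-sided quasi-likelihood tests with Benjamini-Hochberg adjustment. SE is the log2 difference divided by the root of F, and CPM are scaled by TMM. P21 was fitted in the same way. On simulated counts for this comparison (17347 genes), 16 of 50 genes changed 1.5-fold, 41 of 50 changed 2-fold, 42 of 50 changed 3-fold and 46 of 50 changed 4-fold were called, with 5 false calls. The changed genes were above 1 CPM, and a 1.5-fold change lies at the cutoff itself. Counts were drawn independently around the same mean in all groups, so animals that stood apart were not modelled. The 5 false calls are therefore no error rate of the real data. No exact permutation test of 3 against 3 animals can go below 0.1.

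Named genes are the 12 largest rises and falls with at least 1 CPM and no overlap of animals, up to 4 called members of each list in each direction or else its 3 most abundant members, the 3 leading genes by adjusted p for each difference of responses (ties ordered by unadjusted p), up to 10 genes called alike at P21, genotype genes, and Apln, Flt3 and Prokr2. A gene that this rule names is not reported here. The members, the 43 gene lists and these rules were chosen with earlier results of these data known. Alternatives were DESeq2 1.42.0, RLE scaling, no filter beyond 1 count, no fold minimum, the 6 animals alone, and fits without exposed XXM animals 22 and 23 or without single animals. The 6 samples of the comparison do not share replicate numbers. Figures and tables were made in Python 3.11.15 with pandas 2.3.3 and matplotlib 3.10.9.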

Additional observations from a re-analysis of the deposited data

Results flagged for a closer look

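In all, 16 genes stood out because they were called in opposite directions in XXF lungs at P5 and at P21. Values below are the difference of the responses, P21 minus P5, on the log2 scale with its SE where given, from a joint model added after the calls were seen. The genes were chosen for their opposite calls, so these differences are a description with no independent test. Among genes of macrophages and dendritic cells the differences were -2.574 ± 0.43 for Gpnmb, -2.643 ± 0.53 for Olr1, -1.629 ± 0.24 for Itgax and -1.557 ± 0.24 for Wdfy4. Gpnmb itself was 1.20 at P5 and -1.38 at P21, and Olr1, a scavenger receptor for oxidized LDL, 1.09 at P5 and -1.56 at P21. The laminin chains gave -1.785 ± 0.33 for Lama3 and -1.34 ± 0.25 for Lamb3. The remaining genes that rose at P5 gave -1.509 for Ano1 (a calcium-activated chloride channel), -1.606 for Rec8 (a meiotic cohesin subunit), -1.855 for Shisa6, -1.571 for Clip4 and -1.614 for Veph1. Among genes that fell at P5 and rose at P21 the differences were 4.003 ± 0.64 for Dlk1, 3.506 ± 0.57 for Agt, 1.756 ± 0.25 for Tcf21, 1.358 ± 0.22 for Acer2 and 1.381 ± 0.20 for Ccdc8. Dlk1 was -1.34 at P5 and 2.62 at P21, Tcf21 -0.68 at P5 and 1.07 at P21, and Acer2, an alkaline ceramidase, -0.76 at P5 and 0.59 at P21.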

How the results depend on the processing

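The counts of called genes depended on the fit. Rises numbered 141 and became 389 without a fold minimum, 277 without exposed XXM animals 22 and 23, 267 in the 6 animals alone, and 62 to 139 when 1 XXF animal was left out. Falls numbered 133 and became 208 with DESeq2, 283 without a filter beyond 1 count, 329 without a fold minimum, 362 without animals 22 and 23, 323 in the 6 animals alone, and 72 to 138 without single animals. The lowest counts were those without room air animal 3 for rises and without exposed animal 18 for falls. Without animals 22 and 23 the estimate of spread was lower, and leaving out a single XXF animal leaves fewer samples. The cause of the other shifts was not tested. Of the 81 named genes that were called, none changed sign under any alternative, and 11 to 32 lost the call when 1 XXF animal was left out.

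Differences of responses called 0 genes and became 7, 110, 9 and 6 with DESeq2 and 60, 158, 7 and 65 without the filter, for XXF against the mean, XXM, XYF and XYM. Without single animals they ranged from 0 to 320 against the mean, 0 to 2204 against XXM, 0 in all fits against XYF, and 0 to 13 against XYM. The 320 and 2204 came without exposed XXM animal 21, and the 13 without exposed XYM animal 27. Genes called alike at P21 numbered 34 and became 64 with DESeq2, 66 without the filter, 78 without animals 22 and 23, and 9 to 35 without single animals. In the joint model the upward differences numbered 245, or 420 without animals 22 and 23 and 126 to 280 without single animals (126 without P21 control 34). The downward differences numbered 385, or 223 to 410 without single animals (223 without P21 exposed animal 51).

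Among the named genes, signs changed at 12 genes, none of them called in the main comparison. Slc3a2 became -0.00123 with DESeq2, -0.001117 with RLE scaling, -0.005401 without the filter and -0.004933 without animals 22 and 23. Stard4 became 0.000847 in the 6 animals alone, Alb 0.04937 and Fabp4 -0.06111 with DESeq2, and Xist -0.003556 without the filter and -0.001589 without animals 22 and 23. Without single animals the log2 difference ran from -0.01335 to 0.02698 for Slc3a2, -0.1168 to 0.07563 for Ddx58, -0.08964 to 0.03785 for Pcna, -0.04049 to 0.04665 for Stard4, -0.04283 to 0.3215 for Msln, -0.01505 to 0.1277 for Krt19, -0.5797 to 0.2213 for Upk3b, -0.04964 to 0.3044 for Cd3d, -1.485 to 0.4527 for Alb, -2.271 to 0.1643 for Ahsg, -0.5149 to 0.3518 for Fabp4 and -0.02293 to 0.04065 for Xist. No paired analysis was possible because the groups compared share no replicate numbers.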

Other observations

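The called genes below were picked one by one after their values were seen and stand for no group. Scnn1a, the alpha subunit of the epithelial sodium channel that clears fluid from airspaces, was at 164, 171 and 123 CPM in room air animals 1, 2 and 3 and 238, 219.9 and 289 CPM in exposed animals (0.70 ± 0.16, log2 difference with SE). Aqp4, a water channel, was at 10.3, 7.17 and 5.37 CPM and 13.6, 12.7 and 12.2 CPM (0.74 ± 0.19). Slc6a14, an amino acid transporter, was at 33.7, 32.3 and 28.1 CPM and 56, 55.4 and 60.5 CPM (0.86 ± 0.12). The groups did not overlap for any of them.

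Bdnf, brain-derived neurotrophic factor, was at 4.34, 2.36 and 3.25 CPM in room air and 7.23, 7.7 and 8.58 CPM in hyperoxia (1.25 ± 0.29), and its receptor Ntrk2 was at 22.9, 27.6 and 27 CPM and 38.6, 48.4 and 38.3 CPM (0.70 ± 0.16). Sema3a, a repellent guidance cue that also acts on endothelium, was at 100.4, 92.7 and 92.8 CPM and 172, 179 and 149 CPM (0.81 ± 0.09), and Ntn1, netrin 1, was at 84.8, 79.1 and 83 CPM and 49.8, 49.7 and 55.7 CPM (-0.67 ± 0.11). The exposed animals were all above the controls for Bdnf, Ntrk2 and Sema3a and all below them for Ntn1.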
